A study of Homo sapiens with 1 sample.

Results

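The genes described here were protein-coding genes with several separate open promoters, that is, genes whose annotated transcripts start at distant places and where the DNA of more than 1 of those places was accessible. A transcription start site (TSS) was called open when the summit of an ATAC-seq peak, its point of highest signal, lay from 1 kb upstream to 100 bp downstream of it. Open start sites more than 5 kb apart, each with a peak of its own, were counted as separate promoters. On chromosomes 1 to 22, 948 of 18773 protein-coding genes met the rule (5.05%). Only genes with 2 or more separate annotated promoters could meet it, and 948 of these 6684 candidate genes did (14.2%). For scale, 11171 genes had at least 1 open promoter (59.5%). The genes were chosen by the peaks at their promoters, so these counts and the signal at the promoters are descriptions, and no test was made on them.

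ATAC-seq uses the Tn5 transposase to insert sequencing adapters into open chromatin. The cells were 786-O, an established cell line from a human clear cell renal cell carcinoma, with an empty vector introduced according to the label, although the deposited names of the peaks bear the tag WT, and the label was followed here. The data were 88676 peaks of 1 library, of which 86239 lay on chromosomes 1 to 22. There was no replicate, the study's library with DPF3a overexpression is not analysed here, and no comparison between conditions was made. Accessibility is given as the fold of a peak, the read depth (pileup) at its summit over the genome-wide background, and it does not measure transcription. The pileup behind a fold ran from 9 to 300, and where a range follows a fold it is the exact Poisson 95% interval, which covers counting error only. Kidney epithelial PAX8 and PAX2 had open promoters with folds of 31.9 and 22.7, as did the keratin genes KRT8 (43.3) and KRT18 (8.24) and mesenchymal VIM (47.9). Each fold is that of the gene's strongest open promoter. For KRT8 this was not the promoter of the canonical start, the one taken as representative of the gene, which had 27.3. The canonical start of VIM was not open by the rule. No peak lay at the promoters of EMX2 and LHX1, which mark kidney epithelium too, nor at those of the blood, liver, muscle and neuronal markers PTPRC, CD3E, ALB, MYOD1 and NEUROD1. The glial marker GFAP had 2 peaks at the level of the weakest peaks in the list (fold 5.67 each).

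Alternative promoters let 1 gene produce transcripts with different first exons. Where the coding sequence begins in that first exon, the choice of promoter also sets the amino terminus of the protein, and a promoter far inside a gene can give a much shorter protein. Many promoters in mammals lie in CpG islands, stretches rich in GC and in the CpG dinucleotide that are often open in many cell types, whereas CpG-poor promoters are more often restricted to some cell types. Genes of the cytoskeleton, of cell adhesion and of developmental transcription are well known for such promoters.

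The sequences at several of these summits, written in the direction of transcription of the gene in hg38 coordinates, show the classes of promoter that recur below. Capitals mark matches on either strand to short motifs that were searched, of which CCAAT (bound by NF-Y), TGACTCA (AP-1) and GGAATG (TEAD factors) are the ones they hold. The bases lie within 50 bp of the summit, and annotated UTR bases were left out. The first 4, the promoters of EIF2AK3 and of ABL1, show genes with CpG-rich sequence, as found in CpG islands, at both places (at least 55% GC and at least 0.65 of the expected CpG in the 300 bp around the start site).
EIF2AK3 upstream-most promoter, chr2:88691557-88691657, minus strand: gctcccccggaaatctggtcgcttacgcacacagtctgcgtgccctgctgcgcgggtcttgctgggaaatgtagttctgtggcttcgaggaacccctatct
EIF2AK3 downstream-most promoter, chr2:88627658-88627758, minus strand: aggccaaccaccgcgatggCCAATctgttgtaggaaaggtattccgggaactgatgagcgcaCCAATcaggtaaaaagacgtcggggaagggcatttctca
ABL1 upstream-most promoter, chr9:130712701-130712801, plus strand: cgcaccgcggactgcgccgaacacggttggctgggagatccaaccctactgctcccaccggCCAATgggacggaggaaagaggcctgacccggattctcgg
ABL1 downstream-most promoter, chr9:130834790-130834890, plus strand: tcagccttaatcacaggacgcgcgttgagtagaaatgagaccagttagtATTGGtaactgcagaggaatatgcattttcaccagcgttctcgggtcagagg
The last 4 come from promoters that were not CpG-rich and whose folds ran from 23.7 to 57.2. WDR1, KRT8 and ARID1B have an AP-1 motif there, and the ABL2 stretch holds neither a CpG nor any motif searched.
WDR1 downstream-most promoter, chr4:10106724-10106824, minus strand: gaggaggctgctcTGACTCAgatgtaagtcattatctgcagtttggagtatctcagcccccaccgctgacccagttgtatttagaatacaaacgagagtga
KRT8 upstream-most promoter, chr12:52949883-52949957, minus strand: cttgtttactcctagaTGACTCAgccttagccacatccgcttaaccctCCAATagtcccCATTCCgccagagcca
ABL2 downstream-most promoter, chr1:179143077-179143168, minus strand: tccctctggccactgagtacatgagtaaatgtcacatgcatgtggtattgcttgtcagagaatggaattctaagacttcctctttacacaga
ARID1B internal promoter, chr6:156828539-156828639, plus strand: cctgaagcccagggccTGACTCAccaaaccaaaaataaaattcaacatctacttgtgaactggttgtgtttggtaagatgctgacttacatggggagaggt

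Most of the 948 genes had 2 open promoters (821 genes), while 105 had 3, 16 had 4, 5 had 5 and 1, TNS3, had 6. Their annotated start sites formed 3238 separate promoters, of which 1181 held no open start site. Grouping the open start sites alone gave 2052 open promoters. In 389 genes (41.0%) every annotated promoter was open. Of all 6684 candidates, 3805 (56.9%) were open at a single promoter and 1931 (28.9%) at none. The share with several open promoters rose with the number annotated, from 8.50% (interval 7.68 to 9.39) of genes with 2 annotated promoters to 18.8% with 3, 23.9% with 4 and 38.7% (34.3 to 43.1) with 5 or more, so the annotation sets how many can be seen. The outermost open start sites of a gene lay a median of 29.2 kb apart (quartiles 12.8 and 70.4 kb), and 168 genes (17.7%) spanned more than 100 kb. By chromosome, the share of candidates ranged from 9.09% on chromosome 14 (23 of 253) to 18.1% on chromosome 22 (27 of 149). The median fold of the strongest promoter ranged from 22.2 on chromosome 14 to 53.1 on chromosome 8. All folds are over 1 genome-wide background and were not corrected for DNA copy number. Its part in peak calls and in ranks across chromosomes was not tested.

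**Figure D1:**
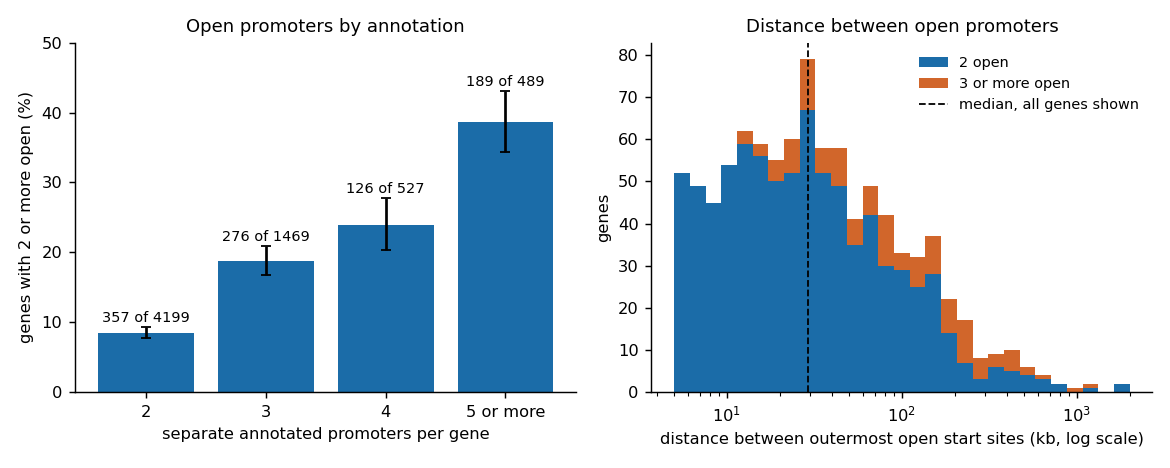
Left, percentage of candidate genes with 2 or more open promoters by their number of separate annotated promoters, with exact 95% binomial intervals and the gene counts above the bars. Right, number of genes by the distance in kb (log scale) between their outermost open start sites, stacked by the number of open promoters. The share rises from 8.50% to 38.7%, and the median distance, the dashed line, is 29.2 kb.

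At the edge of the 5 kb rule stood LRRC8E, a subunit of volume-regulated anion channels, with start sites 5.09 kb apart and folds of 13.9 and 8.76. POMGNT1, a glycosyltransferase that modifies dystroglycan, followed at 5.10 kb with folds of 6.18 and 20.6. Just outside were PDE6D, a chaperone of prenylated proteins, at 4.99 kb with folds of 14.4 and 46.4, and DNAJC18 at 4.97 kb with folds of 11.3 and 19.1. A further 538 genes had open start sites with different peaks only within 5 kb of each other and are not counted.

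The farthest pair belonged to MACROD2, an ADP-ribosylhydrolase gene, where the promoters lay 1990 kb apart with folds of 17.5 (12.2 to 24.4) and 6.18 (3.34 to 10.7). PTPRD, a receptor-type tyrosine phosphatase gene, followed at 1755 kb with folds of 9.28 and 16.0, and both of its promoters were CpG-rich. NRXN3, which encodes a neurexin, had 3 open promoters over 1110 kb with folds of 9.79, 22.7 and 34.5 in the direction of transcription. AUTS2 had folds of 6.70 and 10.3 at 1096 kb. In CAMTA1, a calmodulin-binding transcription activator gene, the first promoter had a fold of 68.5 (57.4 to 81.2), the second 5.67 and the third 25.8 across 919 kb. Apart from the first promoter of CAMTA1 and the last of NRXN3, the folds of these distant promoters were at most 25.8.

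The fold of the promoters differed by their place in the gene, along with their CpG content described below. Upstream-most open promoters had a median fold of 23.2 (quartiles 13.4 and 37.2, n = 948), internal ones 19.6 (10.8 and 30.9, n = 156) and downstream-most ones 17.5 (9.79 and 29.9, n = 948). The single open promoters of other candidates had a median of 24.7 (n = 3805), and all peaks on chromosomes 1 to 22 had 10.8. Peak widths followed the same order, with medians of 1168 bp upstream-most, 932 bp internal and 809 bp downstream-most against 1204 bp at single open promoters. Peaks of low depth, with a pileup under 15, made up 10.1% of upstream-most, 16.0% of internal and 17.7% of downstream-most promoters, against 8.49% of single open promoters. The lower values downstream are therefore also the less certain ones.

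Within 1 gene the promoters often differed. The strongest promoter had a median fold of 30.9 and the weakest 11.9, and the ratio between them had a median of 2.04 (quartiles 1.40 and 3.57). The counting intervals of the strongest and the weakest did not overlap in 511 genes (53.9%). In 132 genes (13.9%) the ratio was above 5, and in 279 (29.4%) it was below 1.5. The upstream-most promoter was the stronger of the outermost pair in 558 genes (58.9%), the downstream-most in 375 (39.6%), and they were equal in 15. Across genes, the folds of the outermost promoters hardly went together (Spearman's rank correlation 0.06 over 948 genes of this library, which share its depth; genes are not replicates).

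**Figure D2:**
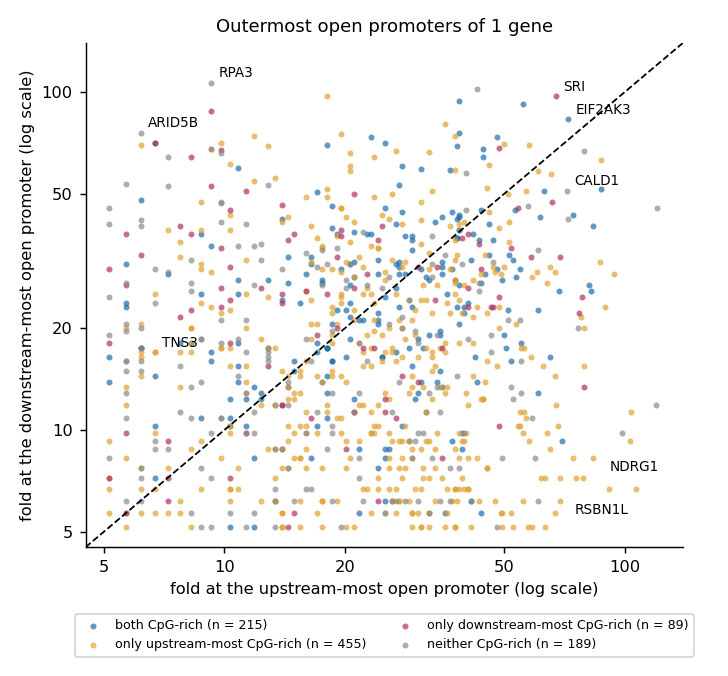
Fold at the upstream-most (horizontal) and the downstream-most (vertical) open promoter of each of 948 genes, both on log scales, coloured by which of the pair is CpG-rich. Points below the dashed line of equal folds are the 558 genes with the stronger upstream-most promoter. Genes in which only the upstream-most promoter is CpG-rich lie mostly below the line, and RPA3, ARID5B, NDRG1 and RSBN1L lie at its far sides.

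The strongest pairs, ranked by the weaker promoter, were at genes of varied function. EIF2AK3, which encodes the endoplasmic reticulum stress kinase PERK, had folds of 72.1 (60.7 to 85.1) and 83.0 (70.7 to 96.8) 64.0 kb apart, and its upstream-most peak also lay at the promoter of RPIA. SRI, which encodes the calcium-binding protein sorcin, had 67.5 and 97.4 with intervals that did not overlap. In ENKUR the folds were 79.4 and 67.0, and the downstream-most peak was shared with THNSL1. ESYT1, an extended synaptotagmin of membrane contact sites, had 60.8, at a peak shared with ZC3H10, and 58.2. RABGAP1L had 57.7 and 69.6 across 641 kb. WDR1, a cofactor of cofilin in actin disassembly, had 65.4 (54.6 to 77.8) at its CpG-rich first promoter and 57.2 (47.1 to 68.8) at the AP-1 containing promoter printed above. Except in SRI, the paired intervals overlapped, so the order within each of these pairs cannot be told from counting error.

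In other genes 1 promoter dominated. ARID5B, a chromatin-associated transcriptional coactivator gene, had a fold of 6.18 (3.34 to 10.7) at its upstream-most promoter and 75.7 (64.0 to 89.0) at the downstream-most, 148 kb away, where the annotated protein has 945 residues in place of 1188. RPA3, the small subunit of replication protein A, had 9.28 and 107, the second at a peak shared with UMAD1. MAP3K7CL had 6.18 and 69.6, SH2D3C, an adaptor protein gene, 6.70 and 70.6, and TRIM36, a ubiquitin ligase gene, 6.70 and 70.6. The opposite order was seen in NDRG1, a gene known to respond to hypoxia, with 107 (92.7 to 122) upstream and 6.70 (3.71 to 11.3) downstream. RSBN1L had 91.2 and 6.70, KCNAB2, a potassium channel beta subunit gene, 63.4 and 5.15, DENND3 67.0 and 5.67, and MARCHF3, a ubiquitin ligase gene, 58.7 and 5.15. In DENND3 the weak promoter belongs only to transcripts whose 5′ end is marked as incomplete. In all 10 genes the intervals of the pair did not overlap, and these genes were named for their ratios.

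The 5 genes described next were those with the most open promoters, with ties settled by the fold of the weakest promoter. A further gene with 5 open promoters was left out by that order. Those named are genes of adhesion and the cytoskeleton and a corepressor gene. TNS3, which encodes a tensin of focal adhesions, is on chromosome 7, and its 6 open promoters covered 254 kb. Its canonical, CpG-rich start site had the lowest fold, 6.70 (3.71 to 11.3). The next promoters inside the gene had 43.8, 70.6 (59.3 to 83.4), 36.1, 7.21 and 17.0, and none of these 5 was CpG-rich. DST encodes the cytolinker dystonin and had 5 open promoters over 413 kb with folds of 44.3, 15.5, 21.1, 14.4 and 64.4 (53.7 to 76.7). The first DST promoter, whose peak was shared with BEND6, and the last were the strongest, and the longest annotated proteins that start at them have 7818 and 2676 residues. LIMS1, whose product PINCH1 binds integrin-linked kinase, had 47.4 at its CpG-rich canonical start and 20.6, 12.4, 14.9 and 29.4 at 4 later promoters that were not CpG-rich. RERE, a corepressor of the atrophin family, had 26.8, 24.2, 33.5, 31.4 and 10.8 over 425 kb. SEPTIN9, a septin filament gene, had 25.8, 29.4, 24.7, 10.8 and 28.3 over 156 kb, and the promoter with 24.7 had an AP-1 motif. Of these 5 genes LIMS1 was the one whose first promoter stood above all its others by more than counting error, while in TNS3 the first was as low as the promoter with 7.21.

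**Figure D3:**
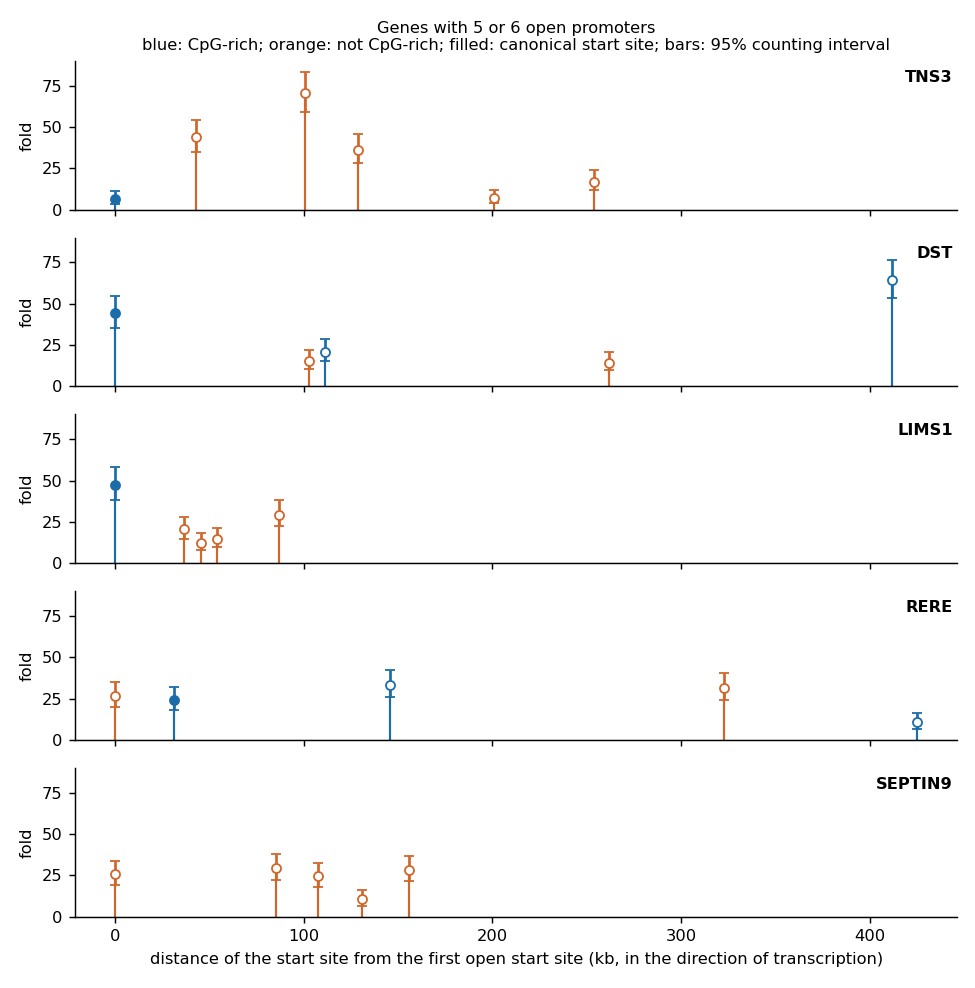
Fold of each open promoter of TNS3, DST, LIMS1, RERE and SEPTIN9 against its distance in kb from the gene's first open promoter, in the direction of transcription. Each promoter is placed at its open start site nearest the summit of its strongest peak. Bars are exact Poisson 95% intervals of the pileup; blue marks CpG-rich promoters, orange the others, and filled points the canonical start site. The highest point of TNS3, 70.6, lies well inside the gene, and the canonical start of SEPTIN9 is not among its open promoters.

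Counts of the genes in lists of known functions were set beside the 14.2% of all candidates. The lists were drawn up from general knowledge of genes with alternative first exons and with earlier results of these data known, so their shares say nothing about those functions at large. Many cytoskeleton and adhesion genes also have many annotated promoters, such as DST with 10 and MACF1 with 11. Over all candidates the share rose from 8.50% with 2 annotated promoters to 38.7% with 5 or more, so the 14.2% is not a like comparison. Of the cytoskeleton and adhesion genes 21 of 35 candidates had several open promoters (60.0%), of the transcription factors 18 of 43 (41.9%), of the kinases and phosphodiesterases 9 of 32 (28.1%) and of the signalling and metabolism genes 6 of 25. Subunits of the SWI/SNF chromatin remodeling complexes, to which DPF3 belongs, had 5 of 14 (35.7%, interval 12.8 to 64.9).

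Among the transcription factors, RUNX1, a regulator of blood development, had folds of 33.0 (25.5 to 42.0) at its upstream-most start and 37.6 (29.5 to 47.2) at the other, 162 kb downstream on chromosome 21. The annotated proteins have 480 and 389 residues. TCF7L2, the Wnt pathway effector, had 21.6 and 21.1 at promoters 177 kb apart that were both CpG-rich. TFEB, which controls lysosomal genes, had 18.6, 22.7 and 29.9 at promoters whose transcripts share a start codon. NFIA had 20.1 and 16.5, and BCL6, a transcriptional repressor, 27.8 and 14.4. Apart from BCL6, the intervals within each of these genes overlapped. Weaker pairs were found at MITF, the melanocyte and osteoclast regulator, with 30.9, 16.5 and 8.76, and at PPARG, the regulator of fat cell formation, with 11.3, 12.4 and 12.9; both lie outside the naming rule and were chosen after their values were seen.

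Of the cytoskeleton and adhesion genes, CALD1 encodes caldesmon, an actin-binding protein, and had 71.6 (60.3 to 84.5) and 51.0 (41.5 to 62.1) at promoters 112 kb apart, with annotated proteins of 793 and 558 residues. Neither was CpG-rich. PLEC, the cytolinker plectin, had 26.8 and 40.7. SPTBN1, a beta spectrin, had 38.6 and 20.6 at 2 CpG-rich promoters. TPM1, a tropomyosin gene in which alternative promoters give long and short forms, had 20.6 and 30.9, with proteins of 326 and 275 residues. MACF1, a cytolinker of actin and microtubules, had 19.6, 29.4 and 39.2 along 251 kb. The intervals of the strongest and the weakest promoter stayed apart in SPTBN1 and MACF1 and overlapped in CALD1, PLEC and TPM1.

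The kinase genes named varied in how far their promoters differed. Genes were named by their weakest promoter, so the lists cannot be compared in this. ABL1 had 52.6 (42.9 to 63.8) upstream and 31.9 (24.6 to 40.9) at the canonical promoter 122 kb downstream, while its paralog ABL2 had 11.9 (7.62 to 17.7) and 54.6 (44.8 to 66.0). The stronger ABL2 promoter was not CpG-rich. AXL, a receptor tyrosine kinase, had 7.21 (4.08 to 12.0) at the canonical start and 29.4 (22.3 to 38.0) in the promoter window of a start 7.53 kb downstream. SGK3 had 27.3 and 53.1, IGF1R 21.1 and 28.3, and DCLK1 13.4 and 8.76. Among signalling and metabolism genes, SMAD3, which carries TGF-beta signals to the nucleus, had 19.1 (13.5 to 26.2) at its CpG-rich canonical promoter and 37.6 (29.5 to 47.2) 62.5 kb downstream. The second SMAD3 summit had a match to the RUNX motif TGTGGTTT, and the protein annotated there has 213 residues in place of 462. ACSL1, a fatty acid activating enzyme, had 19.6 and 23.7. GNAS, which encodes the stimulatory G protein alpha subunit from its canonical start, had 5.67, 9.79 and 16.0. NFE2L1 had 49.5 and 5.15.

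Of the SWI/SNF genes, SMARCA2, an ATPase subunit, had 67.0 (56.0 to 79.5) at its canonical CpG-rich start and 14.4 (9.68 to 20.8) at a start 143 kb downstream with an annotated protein of 278 residues. SMARCD2 had 38.6 and 24.2, the latter only at transcripts with an incomplete 5′ end. ARID1B, a subunit of the BAF form of the complex, had 12.9, 23.7 and 27.8, where the internal promoter, printed above with its AP-1 motif, again belonged to incomplete transcripts. SMARCD3 had 12.9 and 15.5, and SS18L1 16.0 and 8.76. Only in SMARCA2 and ARID1B did the intervals of the strongest and the weakest promoter stay apart. KRT8, the epithelial keratin used as a marker, had 43.3, 35.6 and 27.3, of which the last is the canonical one.

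**Figure D4:**
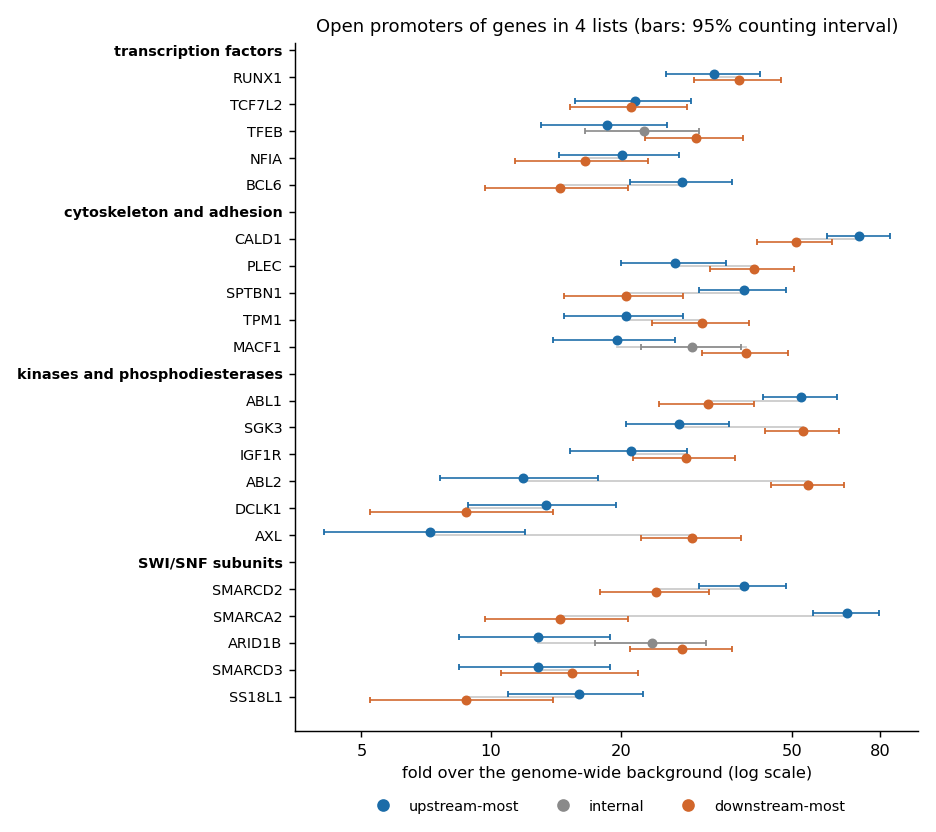
Fold (log scale) of the open promoters of genes from 4 lists, at most 6 genes a list, with exact Poisson 95% intervals. Blue is the upstream-most, gray an internal and orange the downstream-most promoter. The pair of TCF7L2 (21.6 and 21.1) coincides, and pairs such as ABL2, AXL and SMARCA2 lie far apart.

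The sequence of the promoters, which the rule did not use, differed by place in the gene. A promoter was called CpG-rich when the 300 bp around its start site had at least 55% GC and a CpG content of at least 0.65 of that expected from its bases. This held for 70.7% of upstream-most promoters (interval 67.7 to 73.6), 24.4% of internal ones (17.9 to 31.9) and 32.1% of downstream-most ones (29.1 to 35.1), against 76.4% of single open promoters and 72.2% of all open promoters. Median GC was 67.0% upstream-most and 55.7% downstream-most. The closed promoters of the same genes, at any place in the gene, were CpG-rich in 4.83% (57 of 1181), below the shares of open internal and downstream-most promoters. Closed promoters were read at their first start site and open ones at the open start site nearest the summit. The shares of open and closed promoters are therefore not strictly alike. No test was made across promoters, which are not replicates. Without incomplete transcripts the shares were 70.8% and 36.2%, and without peaks shared with another gene 65.6% and 29.7%.

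The most frequent arrangement was a CpG-rich upstream-most promoter with a downstream-most one that was not (455 genes, 48.0%). In 215 genes (22.7%) both were CpG-rich, in 189 (19.9%) neither was, and in 89 (9.39%) only the downstream-most was. With only the first CpG-rich, it was the stronger in 67.7% (interval 63.2 to 72.0), with median folds of 25.2 and 14.4. With both CpG-rich the first was stronger in 52.1% and with neither in 51.9%. With only the last CpG-rich the first was stronger in 44.9% (34.4 to 55.9), with median folds of 18.0 and 25.2. CpG-rich downstream-most promoters had a median fold of 24.5 and the others 14.9. For upstream-most promoters the medians were 25.5 and 16.5. The difference in strength between the places thus went along with CpG content and was small within each CpG class.

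Motifs within 50 bp of the summit differed as well. The AP-1 motif TGACTCA stood at 3.62% of upstream-most (34 of 940 distinct summits), 8.97% of internal and 9.29% of downstream-most promoters (88 of 947, interval 7.52 to 11.3). It stood at 2.51% of single open promoters, 3.00% of all open promoters and 15.6% of all peaks on chromosomes 1 to 22. Outside CpG-rich promoters it was at 13.0% of downstream-most (84 of 644), 9.75% of upstream-most and 7.52% of single open ones, and within CpG-rich promoters of these genes at 1.11%. The TEAD motif GGAATG was likewise least frequent at upstream-most promoters, with 4.15% upstream-most, 7.69% internal and 7.81% downstream-most. These TEAD shares are given without a split by CpG class or the share over all peaks. Whether they follow base composition was not tested. The SP/KLF motif GGGCGG went the other way, at 38.3% of upstream-most, 39 of 156 internal and 21.0% of downstream-most promoters. Within CpG-rich promoters GGGCGG was at 48.1% of upstream-most and 43.9% of downstream-most ones, and outside them at 14.8% and 10.2%. CCAAT was at 17.3%, 9.62% and 14.6%, and the TATA box TATAAA at 1.28%, 1.28% and 2.32%. The ETS motif CCGGAAG was at 5.11% of upstream-most and 35 of 947 downstream-most promoters. Of all open promoters, 37.1% had GGGCGG, 17.9% CCAAT, 1.48% TATAAA and 6.95% CCGGAAG. Of all peaks on chromosomes 1 to 22 the shares were 8.45%, 12.7%, 3.80% and 1.52%. The NRF1 motif was at 0.957%, 0 of 156 and 0.317%. The YY1 motif AAGATGGC (1.60%, 0 of 156 and 0.634%), the E-box CACGTG (3.40%, 1.28% and 2.01%), the CRE TGACGTCA (0.957%, 0 of 156 and 0.422%) and TGTGGTTT (0.213%, 1.92% and 1.16%) were rare, and the CTCF motif matched no promoter of these genes. A match is only a match of letters and does not show that a factor was bound.

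**Figure D5:**
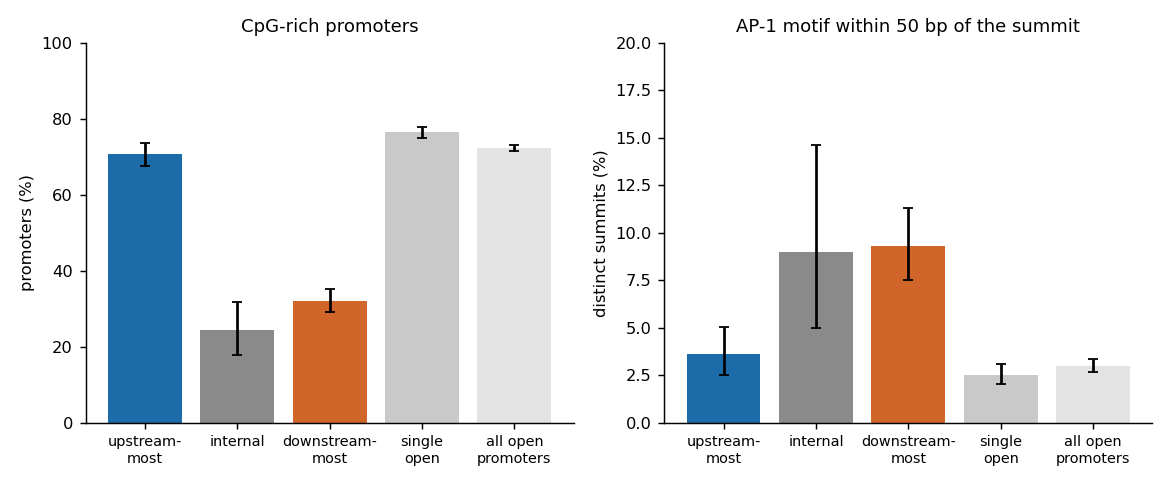
Percentage of promoters that are CpG-rich (left) and percentage of distinct summits with TGACTCA within 50 bp (right), for upstream-most, internal and downstream-most promoters, the single open promoters of other candidates and all open promoters, with exact 95% binomial intervals. CpG-rich promoters are less frequent (24.4% and 32.1%) and the motif more frequent (8.97% and 9.29%) at internal and downstream-most promoters.

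An AP-1 motif was found at a promoter of 129 of the 948 genes. Among promoters that were not CpG-rich, those with the motif had a median fold of 20.1 (quartiles 10.3 and 31.9, n = 125) and those without it 14.9 (8.24 and 27.8, n = 915), with wide overlap. In 73 genes a CpG-rich upstream-most promoter was followed by a later AP-1 containing promoter that was not CpG-rich. The later promoter had its highest folds in GPR160, a G protein-coupled receptor gene (72.1), SH3BP4 (69.0), RAI14 (66.5), ABCB9 (63.9), MCFD2 (58.7), WDR1 (57.2) and AHCYL1 (50.0). These genes other than WDR1 lie outside the naming rule and were chosen after their values were seen.

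The annotation gave the transcripts that start at the open promoters. The canonical start site, the one GENCODE takes as representative of the gene, was open in 821 genes (86.6%), compared with 83.0% of candidates with 1 open promoter. Genes with several open promoters have more places where it can be found, so the rule itself favours the higher share. The canonical start was the upstream-most open promoter in 489 genes, internal in 43 and the downstream-most in 289. Where open, it was stronger than the strongest other promoter in 468 of 821 genes (57.0%), with median folds of 23.7 and 19.1. In 127 genes, among them SEPTIN9, PLEC and TFEB, no open promoter held the canonical start.

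In 810 genes both outermost promoters had transcripts with an annotated start codon. The start codons were different in 406 (50.1%, interval 46.6 to 53.6), the same in 212 (26.2%) and partly shared in 192 (23.7%). This was close to the annotation at large, since the outermost annotated promoters of the other candidates differed in 50.4%. Of the 406 genes, the upstream-most promoter gave the longer annotated protein in 276 (68.0%). The longest protein annotated at the downstream-most promoter had less than 50% of the residues in 115 (28.3%), as in SMARCA2 and DST. Transcripts with an incomplete 3′ end were not set apart, so some annotated lengths may be those of partial proteins. The same limit holds for the residue numbers of single genes above.

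The site of the summits bears on what a downstream peak is. At upstream-most promoters 57.9% of summits lay upstream of the gene, and at downstream-most ones 68.9% lay in an intron and 31.1% in an exon. The summit was within 250 bp of the start site in 80.5% of upstream-most, 70.5% of internal and 69.9% of downstream-most promoters, against 85.5% of single open promoters. In some named genes it lay near the upstream edge of the 1 kb window. Examples are the downstream-most promoters of AXL, RUNX1 and BCL6 and the strongest promoter of TNS3. At 132 downstream-most promoters (13.9%) every transcript had an incomplete 5′ end, so that the true start may lie elsewhere, and 831 genes had several open promoters without such transcripts. A peak of 270 genes (28.5%) also lay at the promoter of another protein-coding gene, at 26.1% of upstream-most but 4.96% of downstream-most promoters. Among the genes named, this also held for the first promoters of ABL1 (with ENSG00000288570), KCNAB2 (NPHP4), MACROD2 (SEL1L2), SS18L1 (PSMA7) and POMGNT1 (LURAP1). Whether a peak inside a gene acts as a promoter or as an enhancer close to an annotated start was not tested.

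The stretches between the outermost open promoters of these genes held further open sites. Away from any protein-coding promoter, 671 genes (70.8%) had at least 1 peak there, and together they had 3117 peaks over 65.8 Mb, or 4.74 per 100 kb. Candidates with 1 or no open promoter lack an open pair, so their stretches ran between the outermost annotated start sites. The peak density there was 3.48 per 100 kb with 1 open promoter and 2.17 with none open. These stretches were bounded by another rule than those ending at open promoters, so the densities do not show a difference between the groups of genes. Among the genes with several open promoters, FOXP1, a forkhead transcription factor gene, had the most peaks in its stretch (43). NEDD4L, a ubiquitin ligase of sodium channels, had 34 and CAMTA1 had 33. The stretches of FOXP1, NEDD4L and CAMTA1 measure 519, 318 and 919 kb.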

How the data were processed

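Per the labels and the study's methods, the authors used fastp for trimming and Bowtie2 2.3.4.3 for alignment to hg38, removed mitochondrial, low-quality and duplicate reads and called peaks with MACS2 2.2.6 in this library alone, against a genome-wide background. A shift for Tn5 insertion is not stated. The deposited fold is a ratio of summit pileup to background; the deposited −log10 p-value and −log10 q-value and the deposited score (at least 52) follow from the same pileup. The folds equal the pileup plus 1 over the background (0.941) plus 1, which gave pileups whole to within 2.8e-05. Total read number is unknown, so the pileup is the depth behind a value.

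Start sites came from the 85517 protein-coding transcripts of GENCODE release 44 on the hg38 sequence. From the 5′ end of a gene, a start site more than 5 kb from the first of the current promoter began the next, and the fold is that of the promoter's strongest peak. Distances run between the outermost open start sites. Shares have exact (Clopper-Pearson) 95% intervals. CpG content was read from 250 bp upstream to 50 bp downstream of the start site, and 12 motifs from 101 bp on both strands. The members and lists were chosen with earlier results of these data known. Named were, per list, up to 6 genes by the fold of their weakest promoter, the 5 with most promoters, the 5 with the greatest distance, the 6 strongest by weakest promoter, the 5 highest and 5 lowest ratios and the genes at the 5 kb limit; some genes, 1 list and some sequences are not reported here. Alternatives covered score, window, separation, transcripts and peaks. Scripts ran under Python 3.11.15 (matplotlib 3.10.9, scipy 1.17.1, pandas 2.3.3, numpy 2.4.6). On simulated data 400 of 400 genes and 240 of 240 planted motifs were recovered.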

Additional observations from a re-analysis of the deposited data

Results flagged for a closer look

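The X chromosome lay outside the rule, and its peaks entered no result above. By the same rule 21 of 245 candidate genes there had several separate open promoters (8.57%, exact interval 5.38 to 12.8), among them PGK1, a glycolytic enzyme gene, with folds of 26.3 and 37.1, ARHGAP4 with 51.5 and 12.4, and NONO with 21.1 and 28.3. They are given because the signal stood in data that were not otherwise used.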

How the results depend on the processing

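The number of genes was 549 with a score above 200 and 353 with only basic transcripts of support level 1 or 2, in place of 948. With the other alternatives it ran from 707 to 1314, and without readthrough transcripts all 948 remained. The share of candidates, 14.2% as reported, was 11.4% and 8.21% with scores above 100 and 200, 19.7% with 1 kb to both sides, 11.2% with 500 bp upstream, 15.2% with basic transcripts, 10.6% without peaks shared with another gene, 19.4% with interval overlap, and 18.0% without transcripts of incomplete 5′ end, an alternative chosen after seeing the data. The median distance was 20.3 kb with a separation of 2 kb, 36.9 kb with 10 kb, 32.3 kb with basic transcripts and 31.4 kb without shared peaks. The median ratio was 1.79 and 1.55 with scores above 100 and 200. Different start codons made up 55.1% with 10 kb, 62.8% with basic transcripts and 54.0% without shared peaks. The upstream-most promoter was stronger in 54.4% with basic transcripts. The canonical start was open in 92.0% with 1 kb to both sides, 78.5% with basic transcripts and 94.5% with interval overlap. With basic transcripts, the signalling and metabolism genes fell from 6 to 0, the transcription factors from 18 to 7 and the SWI/SNF genes from 5 to 3. Of all list and motif values under the alternatives, these included, 33 moved and 68 did not. With 100 bp to each side, the AP-1 motif stood at 6.28% of upstream-most, 19.2% of internal and 16.6% of downstream-most promoters, so the order of internal and downstream-most promoters turned, while both stayed above upstream-most. The order turned in the same way for the TEAD motif (7.98%, 14.7% and 12.4%). No paired analysis was possible because there is 1 library. Depth limits the weak promoters: a pileup under 15 has a wide counting interval, and no difference between libraries or days can be judged.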
